A study of Drosophila melanogaster with 36 samples.

Results

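The blood cell marker genes are 10 genes of Drosophila melanogaster whose products are made by hemocytes, the blood cells of the fly: Hml, NimC1, eater, PPO1, PPO2, Pxn, Col4a1, vkg, Sr-CI and crq. They were taken from the deposited count table by FlyBase symbol, and all 10 were found among its 17552 genes. RNA sequencing was carried out on heads and abdomens of females of 1 base population, called IV in the labels, which were the same stock in every group. Mated females had been paired at 3 days of age with males of polygamous populations (P1, P2 and P3) or of enforced-monogamy populations (M1, M2 and M3). Virgin females (virgin 1, 2 and 3) had no male partner. Freezing took place at 4 days of age, which was 24 h after mating in the mated groups. The 6 male populations had been founded from the same IV stock, held at a census size of 200 and kept apart for 182 generations, followed by 1 generation of common rearing. Each library pooled heads or abdomens of 20 females, so there were 3 libraries per group in each tissue and no values for single flies. The design asked whether mating, and the evolutionary history of the male, altered RNA levels in the female.

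Most fly hemocytes are plasmatocytes, which act as macrophages: they engulf bacteria and dying cells through surface receptors and secrete extracellular matrix. A smaller class, the crystal cells, stores prophenoloxidases, the enzymes that start melanin formation at wounds. Adult flies carry hemocytes in the circulation and attached to tissues of head, thorax and abdomen. Several of the genes are also active outside the blood: collagen IV, for example, is also made by fat body and by ovarian follicle cells. In RNA from a whole body part, fewer blood cells and less RNA per blood cell cannot be told apart.

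The genes fall into 4 roles. Hml encodes hemolectin, a large secreted protein of the hemolymph clot, and lies on chromosome 3L at 13846054 to 13860001 of the BDGP6 assembly. NimC1 (2L, 13973158 to 13976769) and eater (3R, 27095867 to 27099679) encode phagocytic receptors of the Nimrod family. Sr-CI (2L, 4121702 to 4124153) encodes a scavenger receptor that binds bacteria. The fourth receptor, crq (2L, 448254 to 453024), encodes croquemort, a CD36-family receptor for dying cells. Melanisation is represented by PPO1 (2R, 17887220 to 17889973) and PPO2 (2R, 9042261 to 9044709), the prophenoloxidases of crystal cells. Pxn (3L, 2601455 to 2630064) encodes peroxidasin, a secreted peroxidase that cross-links collagen IV. Col4a1 (2L, 5029609 to 5037279) and vkg (2L, 5012144 to 5028191) encode the α1 and α2 chains of collagen IV, the main scaffold of basement membranes. The collagen pair is transcribed in opposite directions from neighbouring starts, with 1417 bases between the annotated genes. In the annotation 448 exon bases of crq overlap the gene ex on the opposite strand, and 233 exon bases of Pxn overlap the gene CG16986 and a non-coding RNA. The strand setting of the counting is not given in the sources used here, so reads over those bases are uncertain.

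Libraries held 41057456 to 56772245 counts in abdomens and 40396031 to 64761633 in heads. The tissues carried their labelled markers: 16 follicle cell genes summed to 1853 to 19838 counts-per-million (CPM) in abdomens and 15.0 to 23.4 CPM in heads. A list of 8 neuron and glia genes summed to 37.7 to 97.8 CPM in abdomens and 2827 to 3556 CPM in heads. Abdomen virgin 3 was low for some of the 10 genes. Hml, NimC1, eater and PPO1 were there at 0.479, 0.478, 0.434 and 0.356 times the mean of the other 2 virgin abdomens. The median over all genes tested was 0.970 times, and crq, Col4a1 and vkg were at 0.930, 0.886 and 0.850 times. This was not particular to blood genes. Virgin 3 was also the lowest virgin abdomen for fat body genes, at 897 CPM against 1245 and 1362 CPM, and for muscle, renal tubule, and neuron and glia genes. Heads of virgin 1, M1 and M2 held 7955, 6405 and 13399 CPM of 28 midgut protease genes, and the other heads 9.62 to 87.5 CPM.

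Levels of the 10 genes spanned a wide range, and their order was compared as CPM per kilobase of exon, averaged over libraries and shown with the SD. In mated abdomens (n = 6) crq was highest at 78.1 ± 4.91, followed by Col4a1 at 50.0 ± 11.3 and vkg at 33.9 ± 7.46, whose ranges overlapped. Pxn came next at 7.16 ± 0.938, and PPO2, Sr-CI, NimC1 and PPO1 lay between 1.31 and 1.83, with overlapping ranges between neighbours. Hml, at 0.824 ± 0.122, and eater, at 0.344 ± 0.0438, were lowest. Virgin abdomens (n = 3) kept this order, with crq at 90.3 ± 5.73 and eater at 0.321 ± 0.152, but there the ranges of all neighbours from PPO2 down to eater overlapped. In heads the order began with crq, Col4a1, Pxn, PPO2 and vkg, at 51.4 ± 2.32, 19.9 ± 2.91, 15.0 ± 0.840, 12.1 ± 1.63 and 11.6 ± 1.95 in mated females (n = 6). The ranges of Pxn, PPO2 and vkg overlapped between neighbours in mated heads. The lowest head level was again that of eater, at 1.09 ± 0.204 in mated and 1.16 ± 0.137 in virgin females. The counts behind these values ran from 26 to 86 per abdomen library for eater up to 6811 to 21198 for Col4a1.

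The first comparison set mated against virgin abdomens. Of the 10 genes, 3 were higher in mated abdomens (Col4a1, vkg and Pxn), 1 was lower (crq) and 6 did not pass, by edgeR's quasi-likelihood test with TMM scaling and a Benjamini-Hochberg adjusted p below 0.05. Among all 10350 genes tested, 54.2% passed, 29.0% as higher and 25.2% as lower, so 4 of 10 is no larger a share than the background. The median log2 change was 0.43 over the 10 genes, or 0.18 without virgin 3, and 0.04 over all genes tested. The 3 genes that rose on this scale are those for extracellular matrix, and none of the 3 passed on a scale set by muscle and renal tubule genes, where vkg and Pxn changed sign. Hml, the receptors NimC1, eater and Sr-CI and both prophenoloxidases did not pass.

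Col4a1 had 363, 337, 208, 385, 242 and 316 CPM in abdomens mated to P1, P2, P3, M1, M2 and M3 males, against 158, 164 and 143 CPM in virgin 1, 2 and 3. Every mated library was above every virgin library, and P3 and M2 were the lowest of the mated ones. The log2 change was 0.99 ± 0.20 (SE), a 1.99-fold rise, with an adjusted p of 0.0030 from edgeR. Its partner vkg had 256, 238, 148, 272, 175 and 233 CPM in the same mated abdomens, against 121, 122 and 103 CPM in virgins. Here too P3 and M2 were lowest among the mated and the groups did not overlap. The log2 change of vkg was 0.93 ± 0.20, with an adjusted p of 0.0043 from edgeR. Summed transcripts of the 16 follicle cell genes were also lowest in P3 and M2 among mated abdomens, at 7543 and 9898 CPM. The other mated libraries had 12382 to 19838 CPM. This was not particular to follicle cells: sums of muscle, renal tubule, midgut protease, other Nimrod and scavenger receptor, and clotting genes were lowest there too. Germline genes were highest in P3 and M2, at 4380 and 4057 CPM. Sums of fat body, basement membrane, and neuron and glia genes were not lowest in both. The part of these transcripts in the collagen values was not tested.

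Pxn had 41.5, 40.6, 36.4, 46.7, 39.0 and 51.7 CPM in abdomens mated to P1, P2, P3, M1, M2 and M3 males, against 25.3, 26.5 and 18.4 CPM in virgin 1, 2 and 3. The groups did not overlap, and the mated spread was narrower than that of the collagens. The log2 change was 0.86 ± 0.13, with an adjusted p of 0.0007 from edgeR. Of all genes tested, 50.2% had groups that did not overlap, 26.1% with higher and 24.1% with lower mated values. Without virgin 3 the log2 changes were 0.94 for Col4a1, 0.86 for vkg and 0.71 for Pxn, with adjusted p-values of 0.0206, 0.0265 and 0.0029 from edgeR.

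**Figure D1:**
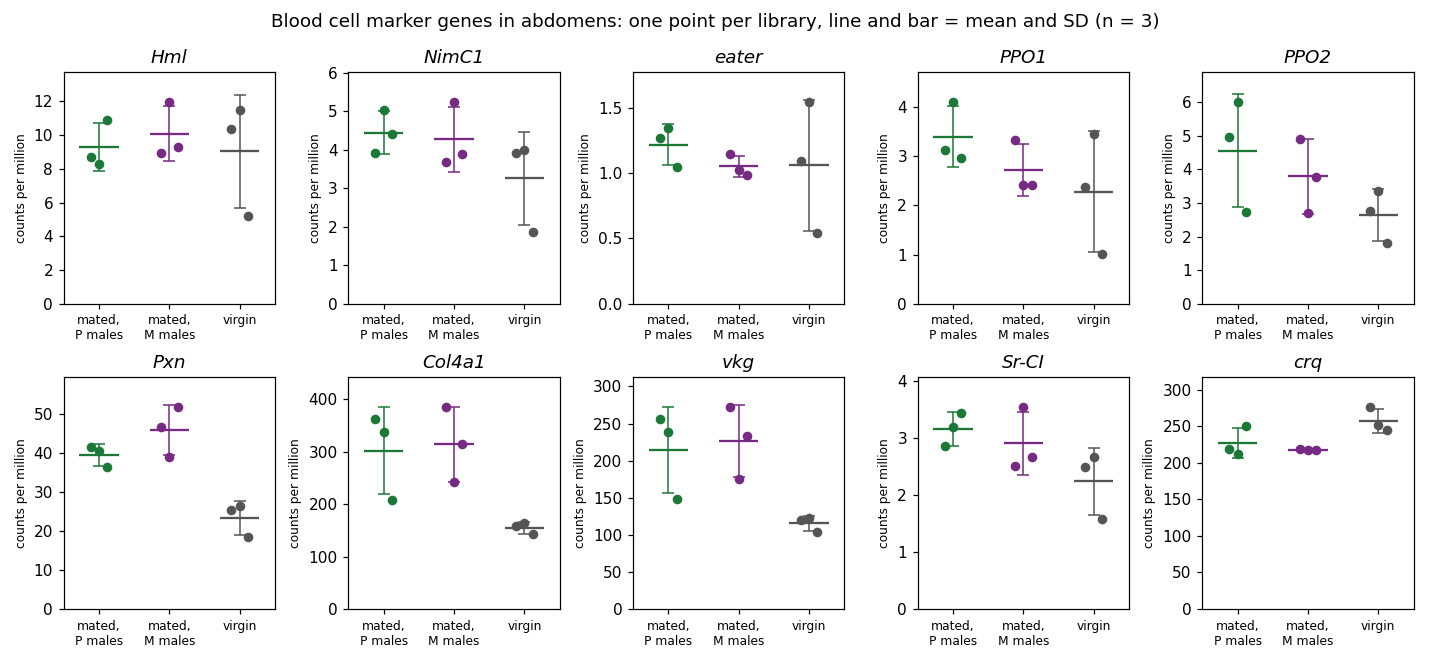
Normalised level (CPM, y axis, linear from 0) of the 10 genes in abdomens of females mated to P males, mated to M males and virgin. Points are libraries, lines and bars the mean and SD of 3 libraries. Col4a1, vkg and Pxn are higher in all 6 mated libraries than in the virgins, a difference that does not pass on the muscle and tubule scale, and virgin 3 (the right-hand grey point) is low for Hml, NimC1, eater and PPO1.

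The receptor for dying cells went the other way. In mated abdomens crq had 219, 211, 250, 219, 217 and 217 CPM for P1, P2, P3, M1, M2 and M3, against 276, 251 and 245 CPM in virgin 1, 2 and 3. P3 lay inside the virgin range, so the groups overlapped, while the other mated libraries were below every virgin. The log2 change was -0.21 ± 0.07, with an adjusted p of 0.0280 from edgeR. The adjusted p was above 0.05 without virgin 1, where the change was -0.16 with an adjusted p of 0.1115, and narrowly without P1, M3 or virgin 2, where the change was -0.19, -0.20 and -0.23. Under upper quartile normalisation the change was -0.11 with an adjusted p of 0.1980.

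The remaining receptors and Hml did not pass, and virgin 3 was the lowest virgin library for each. Hml had 8.70, 8.29, 10.9, 8.95, 11.95 and 9.32 CPM in abdomens mated to P1, P2, P3, M1, M2 and M3 males, against 10.4, 11.5 and 5.21 CPM in virgin 1, 2 and 3. Mated values lay inside the virgin range except in M2, which was just above it. The log2 change of Hml was 0.10 ± 0.23 with an adjusted p of 0.73 from edgeR, and -0.18 without virgin 3. NimC1 had 3.91, 5.03, 4.40, 3.69, 5.24 and 3.895 CPM in mated abdomens, against 3.92, 3.99 and 1.86 CPM in virgins. Its log2 change was 0.42 ± 0.25, and 0.14 without virgin 3. Levels of eater were 0.986 to 1.35 CPM in mated abdomens, against 0.544 to 1.54 CPM in virgins, with a log2 change of 0.09 ± 0.29 that became -0.22 without virgin 3. Sr-CI was at 2.51 to 3.53 CPM in mated abdomens, against 2.48, 2.66 and 1.57 CPM in virgin 1, 2 and 3. Its log2 change was 0.43 ± 0.21 with an adjusted p of 0.098 from edgeR, and 0.23 without virgin 3.

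The crystal cell enzymes were not called either. PPO1 had 3.13, 4.10, 2.96, 3.32, 2.42 and 2.42 CPM in abdomens mated to P1, P2, P3, M1, M2 and M3 males, against 2.38, 3.45 and 1.00 CPM in virgin 1, 2 and 3. All mated values except P2 fell within the virgin range. The log2 change was 0.41 ± 0.32, and 0.06 without virgin 3. PPO2 had 4.95, 6.01, 2.72, 4.92, 2.69 and 3.77 CPM in mated abdomens, against 2.75, 3.36 and 1.82 CPM in virgins. P3 and M2, the libraries lowest for collagen IV among the mated, were also lowest for PPO2. The log2 change of PPO2 was 0.65 ± 0.30 with an adjusted p of 0.086 from edgeR, which became 0.78 with an adjusted p of 0.0248 when P3 was left out and 0.44 when virgin 3 was left out.

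The scale of the abdomen values matters because much of the abdominal transcriptome differed between mated and virgin females. Scaled on 28 muscle and renal tubule genes instead, the median change of all genes was -0.94, and the log2 changes were 0.01 for Col4a1, -0.05 for vkg and -0.10 for Pxn, none of which passed. On that scale 6 of the 10 genes passed as lower in mated abdomens: Hml at -0.82, eater at -0.83, NimC1 at -0.50, PPO1 at -0.49, Sr-CI at -0.50 and crq at -1.20. Of all 10350 genes tested, 7444 passed there in either direction, so 6 of 10 called is no larger a share than that. The share of all genes called lower on that scale is not given here. All of the 6 but crq fell less than the median of all genes. On both scales the matrix genes had the largest log2 values of the 10 and crq the smallest. Col4a1 lay 0.95 log2 units above the all-gene median on either scale, and crq 0.26 below it on the TMM scale and 0.25 below it on the other. A change of scale moves all genes by nearly the same amount, so this order and these distances are not a separate test.

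**Figure D2:**
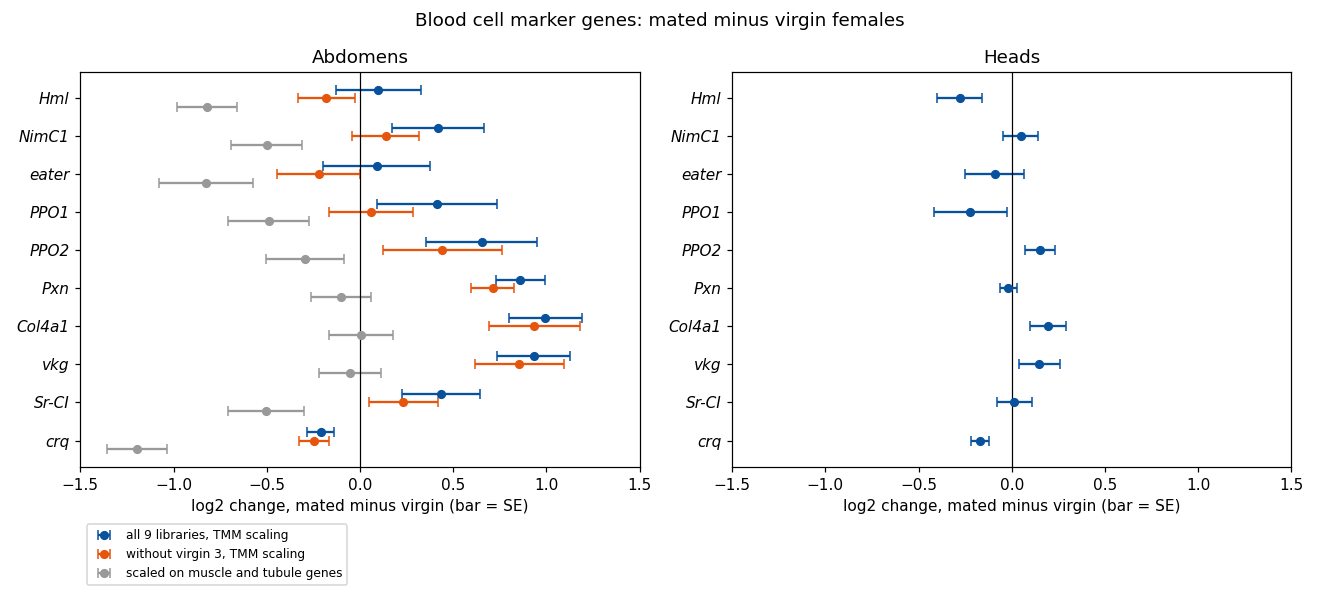
Log2 change of the 10 genes in mated minus virgin abdomens (left) and heads (right), with bars of 1 SE. In abdomens the 3 settings are all 9 libraries, virgin 3 left out, and scaling on muscle and tubule genes. Col4a1, vkg and Pxn lie above the other genes in each, near 0 on the last scale. That scale moves all genes by nearly the same amount, so their order there is not a separate test. All head values lie between -0.28 and 0.19.

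Related genes were read from 6 lists of the same biology, without the 10 marker genes. Of all 10350 genes tested in abdomens, 29.0% were called higher and 25.2% lower on the TMM scale. On the muscle and tubule scale 7444 passed in either direction, with a median log2 change of -0.94. Shares of all genes by direction are not given for that scale. All 10 basement membrane genes were higher in mated abdomens, with a median log2 change of 0.99. Among them Ndg (nidogen, a linker of laminin and collagen IV) had 8.90 ± 1.24 CPM in mated (SD, n = 6) and 2.82 ± 0.471 CPM in virgin abdomens (SD, n = 3), a log2 change of 1.65 ± 0.17. The laminin α chain gene wb changed by 1.36 ± 0.17 and the matrix ligand gene Tig by 1.53 ± 0.16. Scaled on muscle and tubule genes, 3 of the 10 passed as higher and 0 as lower, with a median of 0.03. Of 4 collagen processing genes, 3 passed the filter on low counts, which genes can pass through the group in which they are high. Of the 3, PH4alphaEFB and Loxl1 were higher. The prolyl hydroxylase gene PH4alphaEFB was at 39.0 ± 5.32 CPM in mated and 16.5 ± 2.98 CPM in virgin abdomens. Loxl1 is a lysyl oxidase-like gene below 1 CPM, and its call was lost in most alternatives. The lysyl hydroxylase gene Plod, at 80.1 ± 6.99 CPM in mated and 77.4 ± 5.62 CPM in virgin abdomens, did not pass.

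Among other Nimrod and scavenger receptor genes, 7 of 13 passed the filter on low counts and all 7 were higher in mated abdomens, with a median log2 change of 1.03. Genes can pass that filter through the group in which they are high, so the 7 do not speak for the 13. The engulfment receptor gene drpr had 157 ± 8.00 CPM in mated and 116 ± 2.87 CPM in virgin abdomens, a log2 change of 0.43 ± 0.06 that became -0.56 on the muscle and tubule scale. NimB1 and NimB2, of the secreted Nimrod B group, changed by 1.58 ± 0.24 and 1.23 ± 0.21. On the muscle and tubule scale 1 of the 7 passed as higher and 1 as lower.

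In the CD36 family, to which crq belongs, 2 of 7 genes were higher and 1 was lower in mated abdomens. Of all genes tested, 29.0% were higher and 25.2% lower. The CD36 genes called were emp, at 93.5 ± 3.43 CPM in mated and 38.7 ± 7.51 CPM in virgin abdomens, and dsb, at 10.1 ± 1.04 and 2.63 ± 0.831 CPM. The lower gene was pes, at 235 ± 18.0 CPM in mated and 305 ± 23.6 CPM in virgin abdomens. On the muscle and tubule scale the family had 1 gene higher and 4 lower. The clotting and melanisation list had 8 of 11 genes higher and 0 lower, led by the clot protein gene fon at 92.6 ± 19.5 CPM in mated and 28.9 ± 4.05 CPM in virgin abdomens. The serpin genes Spn77Ba and Spn28Dc, inhibitors of the melanisation cascade, changed by 1.02 ± 0.14 and 1.16 ± 0.19. On the muscle and tubule scale this list had 1 gene higher and 4 lower. Of 13 blood cell fate and surface genes, 9 passed the filter on low counts, with the same limit as for the Nimrod list. Of the 9, 4 were higher and 1 was lower, against 1 higher and 4 lower on the muscle and tubule scale. The GATA factor gene srp, which acts in both hemocytes and fat body, had 81.5 ± 9.69 CPM in mated and 25.9 ± 1.89 CPM in virgin abdomens. Pvr, a receptor tyrosine kinase gene needed for hemocyte survival, changed by 1.06 ± 0.11, and atilla, a lamellocyte surface gene, by 0.75 ± 0.11, which became -0.23 on the muscle and tubule scale. Without virgin 3 the genes called higher were 10 of 10 for basement membrane, 1 of 3 for collagen processing, 6 of 9 tested for Nimrod and scavenger receptors, 7 of 11 for clotting and melanisation and 4 of 9 for fate and surface, and the CD36 family had 2 higher and 2 lower.

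Markers of other abdominal cell types also differed between mated and virgin abdomens, in both directions. Their part in the results above was not tested. Of all genes tested, 29.0% were called higher and 25.2% lower. The filter on low counts kept 8 of 9 fat body and 26 of 28 midgut protease genes, with the limit given for the Nimrod list. In mated abdomens 17 of 18 muscle genes, 13 of 16 follicle cell genes, 6 of 8 fat body genes, 7 of 8 neuron and glia genes, 9 of 10 renal tubule genes and 23 of 26 midgut protease genes tested were higher, while 7 of 11 germline genes were lower and 1 was higher. Without virgin 3 the numbers higher were 17 for muscle, 12 for follicle cells, 4 for fat body, 4 for neuron and glia, 7 for renal tubule and 15 for midgut protease, and 7 germline genes were lower. On the muscle and tubule scale 12 follicle cell genes were higher, fat body had 1 higher and 3 lower, neuron and glia had 0 called, midgut protease had 12 higher and 3 lower, and all 11 germline genes were lower. Of 20 early embryo genes 15 passed the filter on low counts, with the same limit as for the Nimrod list, and 9 of the 15 were higher, against 2 on the muscle and tubule scale. Median log2 changes were 1.00 for muscle, 2.88 for follicle cells, 0.83 for fat body and -0.42 for germline. The fat body genes summed to 1759 to 2324 CPM in mated and 897 to 1362 CPM in virgin abdomens. None of the listed fat body, follicle cell or muscle genes was at 0 in abdomens.

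In heads, 0 of the 10 genes passed between mated and virgin females by edgeR, or by limma voom, and 2 had an unadjusted p below 0.05, Hml and crq. Among all 10886 genes tested 2.21% passed by edgeR, and 1708 had an unadjusted p below 0.05. The median log2 change of the 10 genes was 0.00, and that of all genes -0.01. Hml had 27.9, 28.9, 38.7, 39.4, 34.1 and 38.3 CPM in heads mated to P1, P2, P3, M1, M2 and M3 males, against 43.9, 35.0 and 46.5 CPM in virgin 1, 2 and 3. The groups overlapped, and P1 and P2 were lowest. Its log2 change was -0.28 ± 0.12, with an adjusted p of 0.31 from edgeR.

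For crq the head values were 143, 144, 141, 151, 143 and 158 CPM in females mated to P1, P2, P3, M1, M2 and M3 males, against 165, 162 and 168 CPM in virgin 1, 2 and 3. Every mated head was below every virgin head, a pattern seen for 4.82% of the genes tested, with the opposite one in 3.78% and either in 8.61%. The log2 change was -0.17 ± 0.05, with an adjusted p of 0.1160 from edgeR and 0.0234 from DESeq2. By DESeq2 crq was the 1 gene of the 10 to pass. That tool called 635 of all 10886 genes tested, against 241 by edgeR. Col4a1 had 100 to 150 CPM in mated and 103 to 113 CPM in virgin heads, with a log2 change of 0.19 ± 0.10 that did not pass. PPO2 had 21.96 to 32.2 CPM in mated and 23.2 to 25.6 CPM in virgin heads, and Pxn 81.9 to 95.4 CPM in mated and 89.1 to 90.9 CPM in virgin heads. The log2 changes of the other head genes lay between -0.22 for PPO1 and 0.15 for PPO2.

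**Figure D3:**
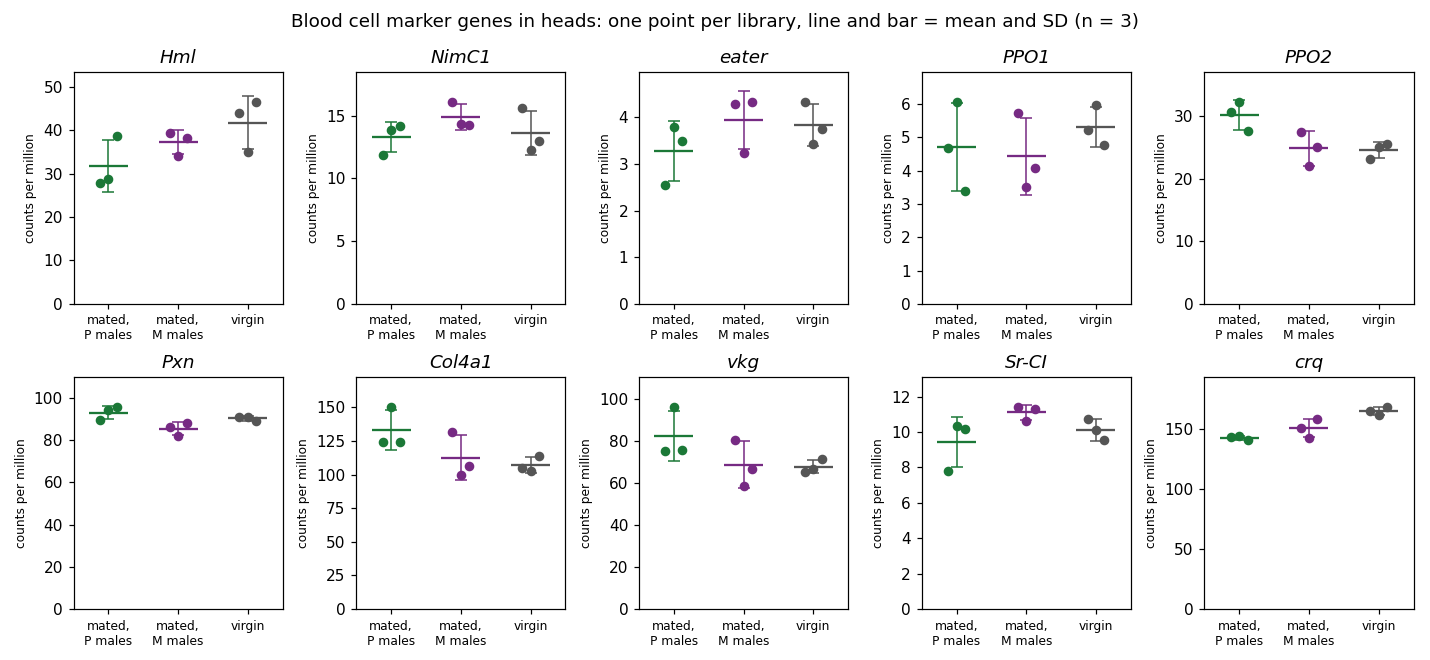
Normalised level (CPM, y axis, linear from 0) of the 10 genes in heads of females mated to P males, mated to M males and virgin. Points are libraries, lines and bars the mean and SD of 3 libraries. Mated and virgin ranges overlap for every gene but crq, which lies at 141 to 158 in mated and 162 to 168 in virgin heads.

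The related lists also gave few calls in heads, where 0.863% of all 10886 genes tested were called higher and 1.35% lower by edgeR. NimB3 was higher, at 5.06 ± 0.785 CPM in mated (SD, n = 6) and 2.93 ± 0.455 CPM in virgin heads (SD, n = 3), with an adjusted p of 0.0219 from edgeR, and 1 of 9 Nimrod and scavenger genes tested passed. In the CD36 family 2 of 7 were lower, with the smallest p for ninaD, a gene for carotenoid uptake, at 5.22 ± 0.437 CPM in mated and 8.26 ± 0.677 CPM in virgin heads. Without the heads of virgin 1, M1 and M2, a design in which 0 genes of the whole table passed, the log2 changes were 0.97 for NimB3 and -0.54 for ninaD, against 0.78 and -0.66 with all heads. Without virgin 3 they were 0.77 and -0.62, with adjusted p-values of 0.0965 and 0.0560 from edgeR. The NimB3 change was 0.73 without P1 and 0.67 without virgin 2, which did not pass either, with adjusted p-values of 0.0615 and 0.0588 from edgeR. The leading genes of the remaining lists, Ppn, Plod, Tg and zfh1, did not pass by edgeR. DESeq2 called Ppn, a basement membrane gene, at 0.37 with an adjusted p of 0.0120. It also called Tg, the transglutaminase gene of the clot, at 0.21 with an adjusted p of 0.0147 from DESeq2. This tool called 635 of all 10886 genes tested in heads, against 241 by edgeR.

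A model of all 18 libraries tested whether the mating effect differed between tissues, as abdomen minus head. It passed for 3 of the 10 genes, against 37.2% of all 11631 genes, 18.6% in each direction. Pxn differed by 0.81 ± 0.14 on the log2 scale, Col4a1 by 0.74 ± 0.23 and vkg by 0.72 ± 0.24, with adjusted p-values of 0.0008, 0.0204 and 0.0258 from edgeR. Pxn alone passed when abdomen virgin 3 was left out, when head virgin 3 was left out, and when the heads of virgin 1, M1 and M2 were left out together. Leaving out libraries moved the size of the collagen differences little. Without abdomen virgin 3 they were 0.69 for Col4a1 and 0.65 for vkg, with adjusted p-values of 0.0604 and 0.0768 from edgeR. Without the 3 heads they were 0.80 and 0.77. The muscle and tubule scale was not run in this model. On that scale the abdomen changes were 0.01 for Col4a1, -0.05 for vkg and -0.10 for Pxn. The TMM head changes were 0.19, 0.15 and -0.02, so the tissue difference of these genes depends on the abdomen scale.

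The second question was whether the regime under which the males had evolved altered the level of these genes in their mates. In abdomens 0 of the 10 genes passed between females mated to P males and those mated to M males, none had an unadjusted p below 0.05, and none had groups that did not overlap, a pattern found for 5.51% of all genes tested (2.9% with higher P values and 2.61% with lower). By edgeR 0% of all genes tested passed, with 185 at an unadjusted p below 0.05, and DESeq2 and limma voom also called 0 of the 10. Log2 differences, P minus M, ran from -0.21 ± 0.15 for Pxn to 0.32 ± 0.36 for PPO1. Col4a1 averaged 303 ± 82.97 CPM with P males and 314 ± 71.3 CPM with M males (SD, n = 3 each), a log2 difference of -0.06 ± 0.22. Hml averaged 9.30 ± 1.40 CPM with P males and 10.1 ± 1.63 CPM with M males (SD, n = 3 each).

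In heads 0 of the 10 passed between P and M as well, again against 0% of all genes, with 864 genes and 2 of the 10 at an unadjusted p below 0.05, and 0 of the 10 by DESeq2 or limma voom. PPO2 had 30.6, 32.2 and 27.6 CPM in heads mated to P1, P2 and P3 males, against 27.5, 21.96 and 25.1 CPM with M1, M2 and M3 males. The groups did not overlap, by a small margin, and the log2 difference was 0.28 ± 0.09 with an adjusted p of 0.61 from edgeR. Pxn had 89.5, 94.0 and 95.4 CPM with P males, against 86.3, 81.9 and 87.8 CPM with M males, a log2 difference of 0.12 ± 0.05 that did not pass. NimC1 and Sr-CI had lower values with every P male than with every M male, at log2 differences of -0.16 ± 0.11 and -0.24 ± 0.11 that did not pass. Such separation in either direction was found for 15.2% of all genes tested, 8.18% with higher and 7.01% with lower P values, and for 4 of these 10. Sr-CI had 7.79, 10.3 and 10.2 CPM in heads with P males, against 11.4, 10.6 and 11.3 CPM with M males. Heads of M1 and M2 also held 6405 and 13399 CPM of midgut protease genes, while no P head exceeded 87.5 CPM. The part of these transcripts in the P against M values was not tested.

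The third comparison set abdomens against heads. Relative to all RNA, 7 of the 10 genes were lower in abdomens than in heads in mated and in virgin females alike: Hml, NimC1, eater, Sr-CI, PPO1, PPO2 and Pxn. In mated females 3 genes were higher in abdomens (Col4a1, vkg and crq), and in virgins 2 (vkg and crq). Over all genes 90.7% passed in mated and 88.5% in virgin females, with 46.6% higher and 44.1% lower in mated abdomens, and 44.1% higher and 44.5% lower in virgin abdomens. Levels in this comparison are CPM scaled across all 18 libraries.

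PPO2 had the largest difference of the 10. It averaged 3.72 ± 1.20 CPM in mated abdomens and 30.6 ± 4.41 CPM in mated heads (SD, n = 6 each), a log2 difference of -3.04 ± 0.20, or 8.21-fold lower. In virgins it averaged 2.44 ± 0.713 CPM in abdomens and 27.2 ± 2.09 CPM in heads (SD, n = 3 each), 11.1-fold lower. Its fellow crystal cell gene PPO1 differed less, with 2.72 ± 0.562 CPM in mated abdomens and 5.08 ± 1.21 CPM in mated heads, a log2 difference of -0.91 ± 0.24. Hml and 3 of the receptor genes were close to each other. In mated females the log2 differences were -2.16 ± 0.17 for Hml, -2.01 ± 0.16 for NimC1, -1.99 ± 0.21 for eater and -2.08 ± 0.13 for Sr-CI. The fourth receptor gene, crq, went the other way at 0.28 ± 0.05. Hml averaged 8.61 ± 1.25 CPM in mated abdomens and 38.4 ± 5.67 CPM in mated heads (SD, n = 6 each). Pxn was at 37.9 ± 5.09 CPM in mated abdomens and 99.3 ± 7.50 CPM in mated heads, a log2 difference of -1.39 ± 0.08, and at -2.21 ± 0.12 in virgins.

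The collagen genes went the other way. Col4a1 averaged 274 ± 62.6 CPM in mated abdomens and 137 ± 20.5 CPM in mated heads, a log2 difference of 1.01 ± 0.13, and vkg differed by 1.23 ± 0.14. In virgins Col4a1 averaged 143 ± 9.65 CPM in abdomens and 118 ± 6.72 CPM in heads (SD, n = 3 each), which did not pass. The virgin difference of vkg, 0.51 ± 0.19, did not pass with other size factors, under upper quartile normalisation, or without head virgin 1, abdomen virgin 1 or abdomen virgin 2. The crq difference was 0.28 ± 0.05 in mated and 0.38 ± 0.07 in virgin females; with DESeq2 the mated value was 0.10 with an adjusted p of 0.0630, and under upper quartile normalisation the virgin value was 0.10 with an adjusted p of 0.1813. The 7 lower genes passed as lower in every alternative run. Follicle cell and germline genes were among the transcripts higher in abdomens, at median log2 differences of 9.14 and 8.17 in mated females, and fat body genes were lower there at -2.56; their part in these differences was not tested.

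**Figure D4:**
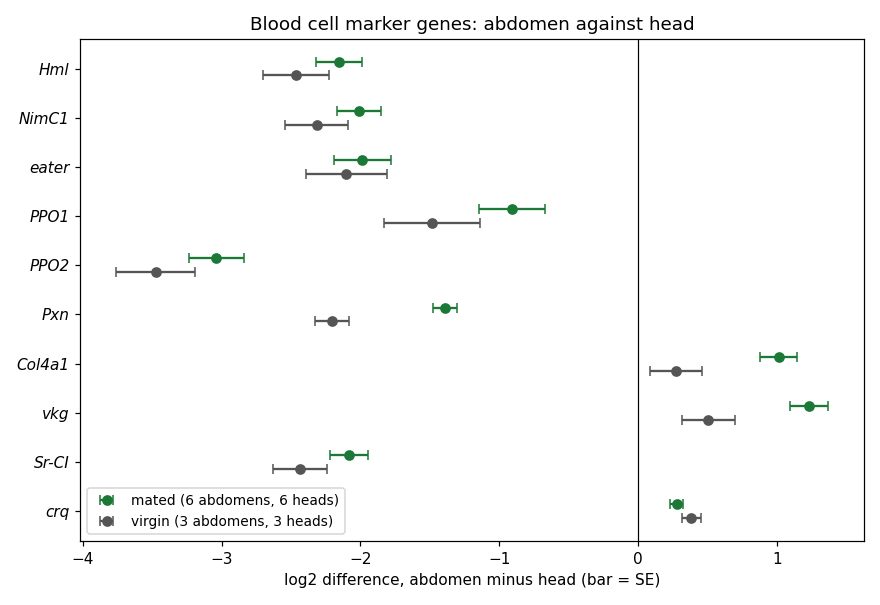
Log2 difference of the 10 genes, abdomen minus head, in mated females (6 libraries per tissue) and virgin females (3 per tissue), with bars of 1 SE. The 7 genes with lower abdomen levels lie left of 0 in both, and Col4a1, vkg and crq lie right of 0, by margins that depend on the scaling for crq and for the virgin values.

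How the genes varied together was described from their log2 CPM in the 9 libraries of a tissue after the mean of each group was removed. These coefficients share library, depth and scaling, and 9 points are few. In abdomens Col4a1 and vkg had Pearson's r of 0.996, the highest of the 45 pairs, and in heads 0.981. A set of Hml, NimC1 and Sr-CI had r of 0.898 to 0.954 in abdomens, and eater and PPO1 had 0.976. Several of these values rested on virgin 3: without it Hml and NimC1 had r of 0.522, and Hml and eater -0.292, while NimC1 with Sr-CI stayed at 0.874 and eater with PPO1 at 0.882. PPO2 went with the collagen genes in both tissues, at r of 0.902 with Col4a1 in abdomens, 0.950 there without virgin 3, and 0.824 in heads. Hml and Col4a1 had r of -0.249 in abdomens, -0.904 without virgin 3, and 0.151 in heads. The genes closest to Col4a1 in abdomens, among 8285 genes ranked, were Zw (r = 0.998), vkg, SPARC (0.993), CG9331 (0.992) and imd (0.992). Those closest to Hml were Oatp58Dc (0.975), Cyp4ac3 (0.972), CG11686 (0.967), shakB (0.964) and CG31445 (0.963), at 0.905, 0.866, 0.877, 0.824 and 0.826 without virgin 3, while the Col4a1 neighbours stayed above 0.99. Among the neighbours of Hml, Oatp58Dc also stands in the renal tubule list. In heads the nearest to Col4a1 were AP-1-2beta (0.990), vkg, Patj, sowah and CG9399, and those nearest to Hml were FBgn0037726 (0.992), Grd, CG4313, aos and wls.

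**Figure D5:**
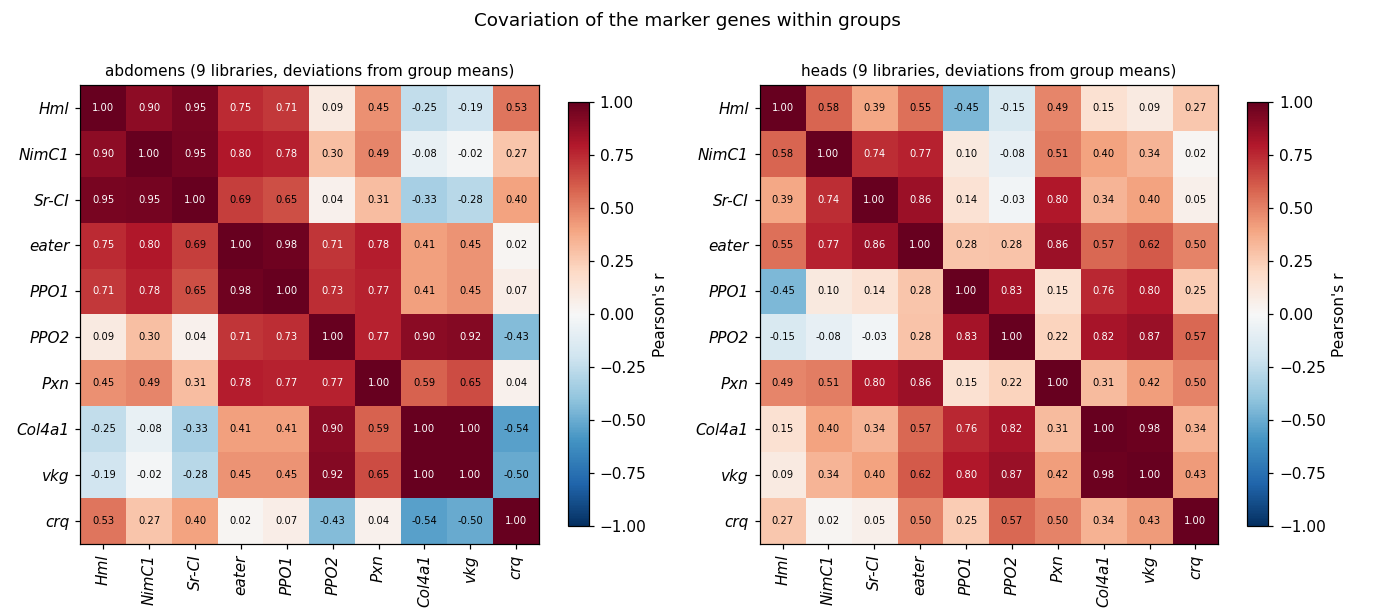
Pearson's r between the 10 genes over 9 abdomen libraries (left) and 9 head libraries (right), computed on deviations of log2 CPM from group means; red is positive and blue negative. The Col4a1 and vkg square is near 1 in both tissues, while the Hml, NimC1 and Sr-CI block of the abdomens is paler in heads.

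The balance within the gene pairs was tested by exact 2-sided permutation of the log2 count ratio, in 8 comparisons. Counts of Col4a1, not corrected for exon length, exceeded those of vkg 1.36 to 1.42-fold in mated and 1.31 to 1.38-fold in virgin abdomens. The mean log2 ratios were 0.484 ± 0.025 (SD, n = 6) and 0.425 ± 0.0375 (SD, n = 3). Their exact permutation p was 0.0476, or 0.286 after adjustment. In mated heads the ratio was 1.56 to 1.70, and in virgin heads 1.54 to 1.604. Counts of PPO1 relative to PPO2 were 0.632 to 1.09 in mated and 0.554 to 1.03 in virgin abdomens. In heads the ratio was 0.123 to 0.209 in mated and 0.187 to 0.239 in virgin females, with an exact permutation p of 0.0714 that became 0.286 after adjustment. None of the 8 comparisons passed, and for P against M, with 3 libraries a side, no p below 0.1 was possible.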

How the data were processed

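RNA was measured in 18 libraries, 3 per group, each sequenced in 2 runs. Per the submitters' processing notes, the authors trimmed reads with Trimmomatic 0.33, aligned them with TopHat2 2.1.0 to BDGP6 and counted them per gene with HTSeq 0.6.1; the deposited counts are whole and not normalised. The labels' protocols name a stranded total RNA kit; annotation release and ambiguous-read handling are not given there. Chi-square per degree of freedom, over genes of 20 counts or more, was 1.81 to 3.32 between runs of a library and 38.7 to 227 between libraries of a group, so runs were summed and n counts libraries. No label ties the virgin pools to separate cultures, so p-values measure only the spread between these samples, which may be technical. Symbols, exon lengths and coordinates came from the Ensembl annotation of BDGP6, which held 17387 of the identifiers.

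Counts were tested in R 4.3.3 with edgeR 4.0.16 (quasi-likelihood, TMM, filterByExpr, robust dispersions) in 1 model per tissue with 3 groups and 1 model over both tissues; p-values were Benjamini-Hochberg adjusted over all genes tested, with a threshold of 0.05. All 10 genes passed the filter in every comparison. SE is the log2 change over the square root of F. CPM uses TMM library sizes within a tissue. Alternatives were DESeq2 1.42.0, limma 3.58.1 voom, other scalings, no filter, single runs, a replicate block and leaving out libraries. Simulated abdomen data with 10250 genes, 95 of them changed by 1 and 99 by 0.5 log2 units, gave back 77.9% and 39.4% of these. Simulated heads, with 10825 genes and 99 changed at each size, gave 79.8% and 24.2%. In the real mated minus virgin abdomens 54.2% of genes passed, so the simulated shares may not hold for that comparison.

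The 10 genes, the 15 gene lists (the 10 genes included) and the scaling on muscle and tubule genes were chosen with earlier results of these data known; 3 of 191 list symbols were not found. Named related genes were up to 3 per list with the smallest p in mated minus virgin abdomens and 1 in heads. Likeness was Pearson's r with Hml and Col4a1 over genes of mean log2 CPM of at least 1, the 5 highest per tissue.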

Additional observations from a re-analysis of the deposited data

Results flagged for a closer look

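In heads, Sr-CI of the library mated to P1 males was 7.79 CPM, below the other 5 mated heads by a gap that exceeded the 95% limit of Dixon's test. In abdomens, crq of the library mated to P3 males was 250 CPM, above the other 5 mated abdomens by such a gap. Of 24 sets of mated libraries tested in this way, chance flags about 1 in 20.

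The mating effect differed between abdomens and heads, by the interaction test of edgeR, for Pxn at 0.81, Col4a1 at 0.74 and vkg at 0.72 on the log2 scale, higher in abdomens. For the collagen genes the adjusted p was above 0.05 when abdomen virgin 3, head virgin 3 or the heads of virgin 1, M1 and M2 were left out, with differences of 0.65 to 0.80. The muscle and tubule scale, on which none of these abdomen changes passed, was not run for this test.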

How the results depend on the processing

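The mated minus virgin calls of Col4a1, vkg and Pxn in abdomens held in every alternative except the scaling on muscle and renal tubule genes. On that scale the log2 changes were -0.10 for Pxn, -0.052 for vkg, -0.82 for Hml, -0.83 for eater, -0.50 for NimC1 and -0.50 for Sr-CI. They were -0.49 for PPO1, -0.30 for PPO2, -0.56 for drpr, -0.23 for atilla, -0.27 for Loxl1 and -0.93 for Plod. There 6 of the 10 genes were called lower, and 7444 of all 10350 genes were called in either direction. Leaving out 1 library at a time, on the TMM scale, gave 3 to 5 called genes in mated minus virgin abdomens. Changes then ran from -0.18 to 0.31 for Hml, -0.22 to 0.46 for eater and -0.0065 to 0.098 for Plod. Virgin 3 was the library that turned them. For P minus M in abdomens the ranges were -0.21 to 0.16 for Col4a1, -0.23 to 0.13 for vkg, -0.016 to 0.10 for crq, -0.042 to 0.23 for NimC1 and -0.24 to 0.027 for Hml. For mated minus virgin heads they were -0.029 to 0.00045 for Pxn, -0.028 to 0.080 for Sr-CI, -0.17 to 0.0038 for eater and -0.022 to 0.16 for NimC1, and for P minus M heads -0.14 to 0.31 for PPO1. The tissue difference of the mating effect ranged from -0.19 to 0.49 for eater, and from 1 to 3 genes called.

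With run 2 alone, Sr-CI was -0.16 for P minus M in abdomens and -0.080 for mated minus virgin heads, and eater was 0.27 for mated minus virgin heads, 0.015 for P minus M heads and -0.10 for the tissue difference of the mating effect. With run 1 alone, Pxn was 0.0028 for mated minus virgin heads, the log2 ratio of Col4a1 to vkg differed by 0.0058 between P and M heads, and that of PPO1 to PPO2 by -0.040 between P and M abdomens. Without the heads of virgin 1, M1 and M2, an alternative added after seeing the data for the tissue comparisons, mated minus virgin heads gave 0.0079 for Pxn and 0.070 for eater, and the tissue difference of the mating effect -0.042 for eater, with 1 gene called. Upper quartile normalisation gave -0.013 for Col4a1 in virgin abdomens minus heads and 0.037 for crq in the tissue difference of the mating effect. DESeq2 called 1 gene in mated minus virgin heads, against 0 in edgeR. The ratio of PPO1 to PPO2, on the log2 scale, ranged with 1 library left out from -0.15 to 0.24 for P minus M and -0.32 to 0.12 for mated minus virgin abdomens, and that of Col4a1 to vkg from -0.042 to 0.0051 for P minus M heads. The causes were not tested.

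The numbers 1 to 3 in the labels did not pair the samples: same-numbered deviations correlated from -0.43 to 0.03 within abdomens and -0.51 to 0.69 within heads, and head and abdomen of a label from -0.40 to 0.26. With the replicate block 3 of the 10 genes were called in mated minus virgin abdomens, against 4 without it, and crq was at -0.21 with an adjusted p of 0.0589. At 26 counts in its lowest library, eater in abdomens was the gene most limited by depth.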
